A study of Mus musculus with 24 samples.

Results

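The crush response of dorsal root ganglia of mice labelled CAST was set against that of mice labelled C57, gene by gene, as the change from naive to injured ganglia in CAST minus the same change in C57. This strain-by-crush interaction asks whether the strains responded differently, which is another question from whether their levels differ. It used 16 of the 24 libraries of the series, picked by their titles, in 4 groups of 4 that the series design calls biological quadruplicates: CAST ganglia 5 days after crush of the sciatic nerve, naive CAST ganglia, C57 ganglia 5 days after crush, and naive C57 ganglia. The labels name no transgene, deletion or drug for any group, and give no age. Their treatment protocol speaks of a sham operation whereas the titles say naive, so whether the naive animals were operated on is not settled. The remaining 8 libraries, of mice labelled DBA, entered the model only for its estimate of the spread and for values set beside those of the 4 groups.

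Sensory neurons that send axons through the sciatic nerve have their cell bodies in dorsal root ganglia, where satellite glia wrap them and Schwann cells, fibroblasts, blood vessels and macrophages lie between them. Crush of the nerve sets off a neuronal growth programme and draws immune cells into the ganglion, and the series title concerns regeneration of injured central axons in CAST/Ei mice. Type I interferon acts through the receptor kinases Jak1 and Tyk2 on a complex of transcription factors that includes Stat2 and Irf9 and binds the interferon-stimulated response element in the promoters of antiviral genes. Interferon gamma acts on gamma-activated sites, and is known for inducing guanylate-binding proteins and the genes of antigen presentation.

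The authors deposited gene levels as FPKM, here fragments per kilobase of gene span (introns included) and per 1e6 reads, so that levels can be compared between libraries and not between genes of different intron content. Library totals recovered from the values ran from 51.39 to 145.47 M reads (M is 1e6) over the 16 libraries, with a median of 107.45 M. On principal component 1, with 46.3% of the variance, the strains lay apart, and on component 2, with 28.1%, injured lay apart from naive ganglia. Injured C57 replicate 3, the library with 51.39 M reads, stood apart on component 3 at 31.14, where naive C57 replicate 1 lay at −4.89 and the other 3 naive C57 libraries at −15.34 to −14.25. The count over all genes is therefore also given without these 2 libraries, and counts over lists where that moves them by over 1.5 times. Statements on which libraries lie above, below or within the range of others refer to the 16 CAST and C57 libraries unless DBA is named. Since the ganglion is bulk tissue, more cells of a type and more RNA per cell cannot be told apart in any value below.

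Of 27110 genes tested with limma, 3199 (11.8%) differed in their response at an adjusted p under 0.05, against 6243 at an unadjusted p under 0.05. The response was higher in CAST for 1916 genes (7.07%) and lower for 1283 (4.73%), and without the 2 libraries named above 2247 were higher and 1316 lower. With upper-quartile scaling of the libraries the split was 1605 higher and 1571 lower, so the excess of higher responses depends on that choice. Each is given as a log2 difference in response, computed throughout on log2(FPKM + 0.1), and its standard error as SE. Their median over all genes was 0.014, and the range from the 5% to the 95% quantile was −0.347 to 0.501. A difference of at least 1 was called for 252 genes on the higher side (0.93%) and 72 on the lower side (0.266%). The pseudocount shapes the differences of genes with low levels, and can keep them small where FPKM is near or below 0.1. Calls were therefore also required on 3 further scales (pseudocounts of 1 and 0.01, and log2 of CPM, estimated reads per 1e6, plus 0.5). This was met by 2434 genes (8.98%), 1487 of them higher (5.49%) and 947 lower (3.49%).

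**Figure D1:**
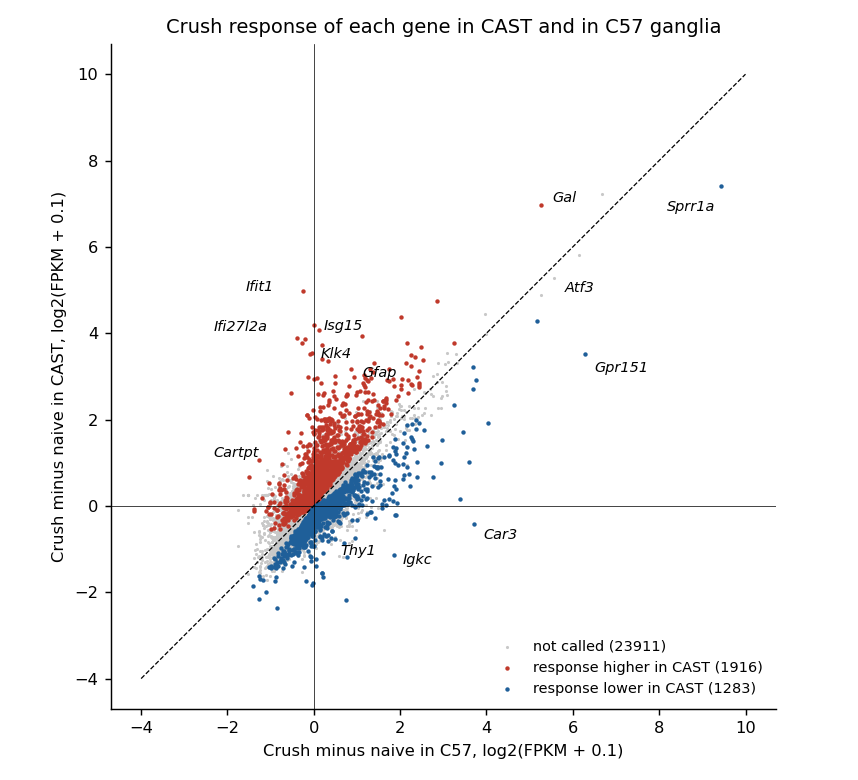
Each point is a gene, placed by its log2 change from naive to injured ganglia in C57 (horizontal) and in CAST (vertical), on the log2(FPKM + 0.1) scale. Red points are the 1916 genes with a higher response in CAST, blue points the 1283 with a lower one, and grey points were not called. Genes on the dashed line responded equally, and the interferon-induced genes Ifit1, Isg15 and Ifi27l2a stand near 0 in C57 and between 3.88 and 4.97 in CAST.

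The called genes were sorted by what each strain did within itself. The commonest pattern was a rise in CAST with no call in C57, seen in 794 genes, 646 of them on all 4 scales. In 711 genes both strains rose and CAST rose more, and in 234 both rose and CAST rose less. In 362 genes both fell and CAST fell more, and in 76 both fell and CAST fell less. A fall in CAST with no call in C57 was seen in 372 genes, and a change in C57 with no call in CAST in 254 genes that rose and 245 that fell in C57. Opposite changes were less common, with 78 genes that rose in CAST and fell in C57 and 54 that fell in CAST and rose in C57. As the background for these patterns, crush raised 6974 genes (25.7%) and lowered 5828 (21.5%) in CAST, and raised 5073 (18.7%) and lowered 5600 (20.7%) in C57. Protein-coding genes were called more often, at 14.5% of 17979, than long intergenic RNAs, at 12.0% of 995, antisense RNAs, at 10.2% of 1522, or processed pseudogenes, at 3.4% of 2383.

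Interferon-induced genes held the largest differences. Of 35 listed and tested, 33 had a higher response in CAST and 0 a lower one (34 and 0 at an unadjusted p under 0.05, and 32 and 0 with voom), against 7.07% and 4.73% of all genes, and all 33 held on the 4 scales. Their median log2 difference was 1.76, against 0.014 for all genes. Within CAST 33 rose after crush (25.7% of all genes), whereas within C57 4 rose and 2 fell (18.7% and 20.7% of all genes). The list was summed per library to show the libraries behind these counts. Such a sum, here and for the lists below, is weighted to members with high FPKM and does not describe every member. Injured CAST libraries held 162, 167, 87.4 and 103 summed FPKM, against 19 to 20.3 in naive CAST, 26.7 to 38.1 in injured C57 and 28.1 to 41.4 in naive C57 libraries. The injured CAST libraries lay above all others, and replicates 3 and 4 lay well below replicates 1 and 2. The starting levels differed too, since 19 of the 35 genes were lower and 4 higher in naive CAST than in naive C57 ganglia (20.2% and 24.5% of all genes), while 34 were higher in injured CAST than in injured C57 ganglia (28.8% of all genes).

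Ifit1, which binds RNA that lacks the cap marks of the host, had the largest difference of the genes that passed the rule for naming. Its levels were 16.1, 19, 7.37 and 7.93 FPKM in injured CAST, 0.262, 0.46, 0.187 and 0.233 FPKM in naive CAST, 1.18, 1.68, 1.76 and 2.02 FPKM in injured C57 and 1.78, 1.63, 1.61 and 3.12 FPKM in naive C57 libraries. Every injured CAST library lay above, and every naive CAST library below, the range of the C57 libraries, and the injured and naive C57 libraries overlapped. The mean level in injured CAST was 44.1 times that in naive CAST, the ratio in C57 was 0.817, and the log2 difference in response was 5.21 (SE 0.403, adjusted p = 1.86e-08). Its protein-coding gene spans chr19:34640871-34650009 (mm10, plus strand).

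Isg15, a ubiquitin-like protein that is joined to other proteins in the antiviral response, had 15, 19, 7.4 and 11.5 FPKM in injured CAST, 0.675, 0.583, 0.542 and 0.554 FPKM in naive CAST, 1.74, 2.15, 2.52 and 3.35 FPKM in injured C57 and 2.28, 2.36, 1.61 and 3.56 FPKM in naive C57 libraries. As with Ifit1, both CAST groups lay outside the C57 range, on opposite sides, and the C57 groups overlapped. The log2 difference in response of Isg15 was 4.19 (SE 0.344, adjusted p = 4.34e-08). Ifi27l2a, an interferon-induced membrane protein, reached 28, 20.4, 18.5 and 21.3 FPKM in injured CAST, against 1.52, 1.03, 1.48 and 1.57 FPKM in naive CAST, 2.43, 2.55, 2.29 and 2.09 FPKM in injured C57 and 3.7, 2.75, 2.27 and 3.94 FPKM in naive C57 libraries. Its injured CAST libraries did not show the step between replicates 1 and 2 and replicates 3 and 4 that Ifit1 showed, and the log2 difference in response of Ifi27l2a was 4.27 (SE 0.321, adjusted p = 1.23e-08).

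Irf7, Irf9 and Usp18, regulators of the pathway, had a higher response in CAST, whereas the receptor kinase Jak1 had a lower one (−0.30, adjusted p = 0.000506). Irf7, the transcription factor that amplifies type I interferon production, had 2.23, 2.09, 0.935 and 1.16 FPKM in injured CAST, against 0.0461, 0.0573, 0.053 and 0.0537 FPKM in naive CAST, 0.241, 0.244, 0.258 and 0.306 FPKM in injured C57 and 0.247, 0.16, 0.173 and 0.314 FPKM in naive C57 libraries. The injured CAST libraries stood alone, and the log2 difference in response was 3.21 (SE 0.285, adjusted p = 1.25e-07). Irf7 overlaps Phrf1 on the opposite strand, and use of strand in counting is not given in the sources used here. Irf9, a DNA-binding part of the type I interferon complex, had a difference of 1.06 (adjusted p = 1.14e-05). Usp18, which removes Isg15 from its targets and damps the interferon receptor, was raised 23.5-fold in CAST, with a difference of 2.91 (adjusted p = 9.66e-08).

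Other effectors also had a higher response in CAST, with smaller differences than Ifit1, Ifi27l2a and Isg15. Rtp4, a chaperone of membrane receptors that interferon induces, had a log2 difference of 3.57 (SE 0.333, adjusted p = 2.45e-07), although it overlaps Masp1 on the opposite strand and its reads cannot be told apart from those of Masp1. Ifit3 and its near copy Ifit3b, which can share reads, had differences of 4.07 and 4.04, and Ifit2 had 3.10. Bst2, or tetherin, which holds new virus particles on the cell surface, averaged 9.8 ± 2.87 FPKM in injured CAST, 0.834 ± 0.0931 in naive CAST, 2.83 ± 0.383 in injured C57 and 2.27 ± 0.642 in naive C57 libraries (SD, n = 4). Mx2 differed from these in its naive level. It averaged 12.6 ± 3.28 FPKM in injured CAST and 1.61 ± 0.121 in naive CAST, against 0.272 ± 0.0515 in injured C57 and 0.165 ± 0.0216 in naive C57 libraries (SD, n = 4), so that naive CAST already lay above both C57 groups. The 2 listed genes that were not called were Cmpk2 (0.73, adjusted p = 0.0548) and Ifi27 (0.14, adjusted p = 0.572).

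**Figure D2:**
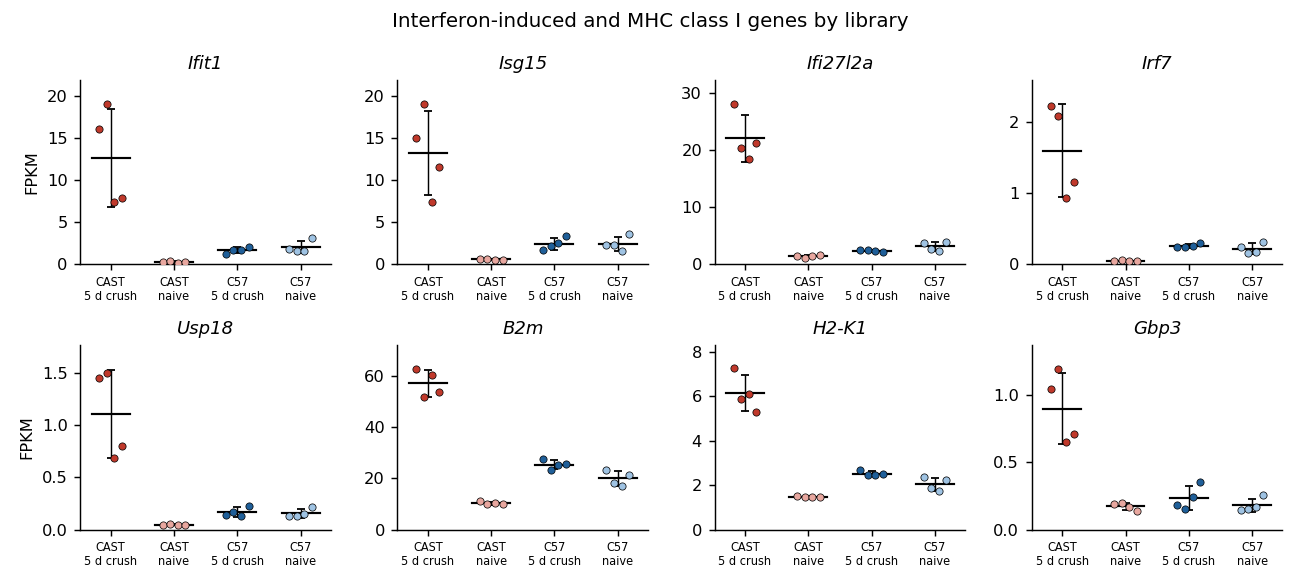
FPKM of 8 interferon-induced, antigen presentation and guanylate-binding genes in each library (points), with group means (bars) and SD (whiskers, n = 4). Injured CAST libraries lie above all other libraries for each gene shown, for example at 7.37 to 19 FPKM of Ifit1, and the C57 groups overlap or meet for each gene except H2-K1, where injured C57 lies above naive C57.

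The promoters of these genes are shown because the list was drawn up for genes that interferon induces, and the element read by the complex of Stat2 and Irf9 can be looked for in them. RefSeq promoters (250 bases before to 50 after the start of a gene, GRCm38.p6) were found for 23 of the 33 called genes. The core of the interferon-stimulated response element, searched on both strands as GAAA, any 2 bases and GAAA, was present in 14 of the 23 (60.9%), against 1079 of 27025 genes (3.99%). The core of the gamma-activated site, TTCNNNGAA on both strands, was present in 5 of the 23 (21.7%), against 2582 of 27025 genes (9.55%), and the cores can overlap each other. In the stretches below, capitals mark every match to the first core on either strand, and each stretch is read 5′ to 3′ along its gene. They are Ifit1 (chr19:34640755-34640843, plus strand), Isg15 (chr4:156200845-156200926, minus strand), Ifit3 (chr19:34583343-34583446, plus strand), Bst2 (chr8:71537557-71537632, minus strand), Oas1a (chr5:120907500-120907575, minus strand) and Rsad2 (chr12:26456533-26456602, minus strand).
Ifit1: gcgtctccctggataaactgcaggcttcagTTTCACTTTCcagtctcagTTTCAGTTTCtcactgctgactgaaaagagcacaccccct
Isg15: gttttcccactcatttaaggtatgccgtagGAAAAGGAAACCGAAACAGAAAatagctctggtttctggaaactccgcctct
Ifit3: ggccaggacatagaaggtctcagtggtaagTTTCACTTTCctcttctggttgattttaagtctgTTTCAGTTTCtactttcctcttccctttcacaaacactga
Bst2: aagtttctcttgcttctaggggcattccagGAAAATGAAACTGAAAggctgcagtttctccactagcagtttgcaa
Oas1a: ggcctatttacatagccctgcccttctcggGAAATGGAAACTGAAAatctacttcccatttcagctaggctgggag
Rsad2: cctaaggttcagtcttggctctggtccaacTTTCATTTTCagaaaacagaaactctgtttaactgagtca
In Isg15, Bst2 and Oas1a matches run into each other, whereas in Ifit1 and Ifit3 they lie apart. A match is a description of these letters and not of binding.

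Interferon-inducible GTPases, which attack the membranes around intracellular parasites, also leaned to a higher response in CAST, with more spread between libraries. Of 15 tested, 9 were higher, 7 of them on all 4 scales, and 0 lower, 60% called against 11.8% of all genes. Their median log2 difference was 1.37. The summed level was 8.52 to 16.8 FPKM in injured CAST, 2.05 to 2.41 FPKM in naive CAST, 4.61 to 12.6 FPKM in injured C57 and 4.32 to 5.73 FPKM in naive C57 libraries, so injured CAST and injured C57 overlapped. Gbp3, a guanylate-binding protein, had 1.04, 1.19, 0.645 and 0.711 FPKM in injured CAST, 0.191, 0.196, 0.165 and 0.14 FPKM in naive CAST, 0.181, 0.154, 0.243 and 0.354 FPKM in injured C57 and 0.148, 0.155, 0.168 and 0.253 FPKM in naive C57 libraries. Its injured CAST libraries lay above the rest, and the log2 difference in response was 1.61 (SE 0.313, adjusted p = 0.00136). Irgm2 and Igtp, immunity-related GTPases, overlap each other on the same strand and had differences of 1.52 and 1.46 (adjusted p = 0.0048 and 0.0101), and Gbp4, which overlaps Gbp8 and Gbp9, had 1.70 (adjusted p = 0.0043). Iigp1, at −0.42 (adjusted p = 0.663), was the tested member with a difference below 0.

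Genes of MHC class I presentation, which show peptides from inside the cell to T cells, had a higher response in CAST for 17 of 18 members and a lower one for 0. All 17 held on the 4 scales, and the share called was 94.4%, against 11.8% of all genes. Their median log2 difference was 1.21. B2m, the light chain of every class I molecule, had 62.8, 51.7, 60.2 and 53.7 FPKM in injured CAST, 11.2, 9.99, 10.2 and 9.8 FPKM in naive CAST, 27.4, 23.4, 25.3 and 25.4 FPKM in injured C57 and 23.4, 18.3, 16.9 and 21.2 FPKM in naive C57 libraries. As with Ifit1, injured CAST was highest and naive CAST lowest, and injured C57 met naive C57 at 23.4 FPKM. The log2 difference in response was 2.10 (SE 0.169, adjusted p = 3.15e-08), and B2m overlaps Patl2 on the opposite strand. The heavy chains H2-K1 (1.68, adjusted p = 2.04e-07) and H2-T23 (2.07, adjusted p = 2.35e-06) were raised 4.14-fold and 5.85-fold in CAST, with ratios of 1.23 and 1.29 in C57. The immunoproteasome subunit Psmb8, which cuts peptides for class I molecules, had a difference of 1.46 (adjusted p = 0.000433), and the peptide transporter Tap1 one of 1.03 (adjusted p = 0.0225). Heavy chain genes vary between strains and have close copies, so their levels between strains are uncertain.

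MHC class II genes, used by professional antigen-presenting cells, behaved differently in their levels. Of 7 tested, 5 had a higher response in CAST and 0 a lower one, all 5 on the 4 scales. That is 71.4% called, against 11.8% of all genes. Cd74, the invariant chain that guards the class II groove, had 4.31, 2.68, 4.82 and 3.88 FPKM in injured CAST, 0.317, 0.409, 0.487 and 0.546 FPKM in naive CAST, 3.73, 3.63, 3.64 and 3.79 FPKM in injured C57 and 1.63, 1.64, 1.33 and 1.38 FPKM in naive C57 libraries. The injured groups overlapped, and naive CAST lay below naive C57 in every library. The log2 difference in response was 1.63 (SE 0.209, adjusted p = 1.53e-05), while the difference in level between injured CAST and injured C57 was 0.05 (adjusted p = 0.794) and that between naive CAST and naive C57 was −1.58 (adjusted p = 2.53e-08). H2-Ab1, H2-Aa and H2-Eb1, the chains of the class II molecules, repeated this, with differences in response of 1.77, 1.64 and 1.56 and differences between the injured groups of −0.05, −0.19 and 0.01 (adjusted p = 0.773, 0.389 and 0.973).

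Complement genes had a higher response in CAST for 9 of 15 members and a lower one for 1, with a median log2 difference of 0.77. The share called was 66.7%, against 11.8% of all genes. C4b, a component of the classical pathway, had 11, 11.8, 8.32 and 7.26 FPKM in injured CAST, 1.65, 1.32, 1.27 and 1.52 FPKM in naive CAST, 5.7, 5.3, 5.85 and 5.53 FPKM in injured C57 and 2.17, 2.34, 2.09 and 3.19 FPKM in naive C57 libraries. The 4 groups did not overlap, and the log2 difference in response was 1.45 (SE 0.187, adjusted p = 1.57e-05). Cfb, which starts the alternative pathway, was raised 3.7-fold in CAST and had a ratio of 1.06 in C57, a difference of 1.35 (adjusted p = 6.93e-07). C1qa and C1qb, which open the classical pathway and are made by macrophages, were raised 11.6-fold and 10.5-fold in CAST and 5.28-fold and 5.07-fold in C57, with differences of 1.1 and 0.99. Serping1, the inhibitor of the first component, averaged 5.2 ± 0.392 FPKM in injured CAST and 2.79 ± 0.164 in naive CAST, against 5.02 ± 0.272 in injured C57 and 5.28 ± 0.553 in naive C57 libraries (SD, n = 4), so the strains were alike after crush to within 0.05 on the log2 scale (adjusted p = 0.559). The lower call was Cd55, an inhibitor of complement, at −0.41 (adjusted p = 0.0344), and it was lost without any of injured C57 replicates 2, 3 and 4, naive C57 replicates 3 and 4, injured CAST replicate 3 and naive CAST replicates 2 and 3.

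Among 23 chemokines and receptors, 47.8% were called, against 11.8% of all genes. Of these, 9 had a higher response in CAST, all on the 4 scales, and 2 a lower one. Ccl5, which attracts T cells and monocytes, had 0.773, 0.386, 0.347 and 0.467 FPKM in injured CAST, 0.0103, 0.0188, 0.0107 and 0.0146 FPKM in naive CAST, 0.106, 0.118, 0.0954 and 0.0893 FPKM in injured C57 and 0.016, 0.0205, 0.0329 and 0.0441 FPKM in naive C57 libraries. Both strains rose without overlap, CAST more, and the log2 difference in response was 1.68 (SE 0.215, adjusted p = 1.55e-05). Cxcl13, which attracts B cells, was at 0.457, 0.25, 0.39 and 0.759 FPKM in injured CAST and at most 0.0428 FPKM in the other 12 CAST and C57 libraries, a difference of 2.14 (adjusted p = 2.87e-06), a call lost with voom on estimated reads. Ccl8, a monocyte chemokine, went the other way. Its levels were 0.811, 0.685, 0.848 and 0.787 FPKM in injured CAST, 0.167, 0.0758, 0.154 and 0.142 FPKM in naive CAST, 2.99, 2.65, 3.13 and 2.72 FPKM in injured C57 and 0.0516, 0.128, 0.0886 and 0.069 FPKM in naive C57 libraries. Injured C57 stood alone at the top, and the log2 difference in response was −2.10 (SE 0.255, adjusted p = 7.67e-06). The other lower call, Cxcl16 (−0.38), was lost with a pseudocount of 1, with the replicate number as a block, and when single libraries of each of the 4 groups were left out.

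Markers of macrophages were examined beside these immune genes. Of 20 markers, 10 had a higher response in CAST and 2 a lower one, 60% called against 11.8% of all genes. On the 4 scales 9 were higher and 1 lower, and the median log2 difference was 0.36. The summed level was 45.1 to 65.4 FPKM in injured CAST, 11.4 to 14.1 FPKM in naive CAST, 36 to 42.2 FPKM in injured C57 and 12.1 to 15.3 FPKM in naive C57 libraries, and no marker was at 0 throughout a group. The naive groups overlapped and injured CAST lay above injured C57. Mpeg1, a pore-forming protein of macrophages, had 16, 12.5, 16 and 12.1 FPKM in injured CAST against 6.01, 5.34, 6.79 and 6.23 FPKM in injured C57 libraries, and 0.96 to 1.25 FPKM in naive CAST against 1.06 to 1.32 FPKM in naive C57 libraries, a difference in response of 1.26 (SE 0.229, adjusted p = 0.000734). Cd14, a receptor for bacterial lipopolysaccharide, and Ctss, a protease that trims Cd74, had differences of 1.2 (adjusted p = 0.00151) and 1.15 (adjusted p = 1.89e-05). Mrc1, the mannose receptor, rose 3.24-fold in CAST and 5.53-fold in C57, a difference of −0.59 (adjusted p = 0.00245). The other lower call, of the scavenger receptor Cd163 (−0.65, adjusted p = 0.0491), was not made on 2 of the scales and not without most of the single libraries. The part of macrophages in the higher responses of interferon, antigen presentation, complement and chemokine genes was not tested.

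Markers of lymphocytes and neutrophils were examined next. Of 14 T and cytotoxic lymphocyte markers tested, 4 had a higher response in CAST and 0 a lower one, 28.6% called against 11.8% of all genes. The higher count was 0 when genes were filtered on FPKM instead of estimated reads. Within CAST 12 of the 14 rose (25.7% of all genes), whereas within C57 3 rose and 1 fell (18.7% and 20.7% of all genes). Among the 4 called were Gzmb (0.68), Cd3e (0.31) and Cd8a (0.17). These 3 lie near or below the pseudocount. Their group means were at most 39.7 estimated reads, for Gzmb in injured CAST, and Cd8a had 2.5 in naive CAST. The Cd3e call was lost without naive C57 replicate 3, without naive CAST replicate 2 and when only the 16 libraries were fitted. The Cd8a call was lost with voom. The summed level was 1.1 to 1.56 FPKM in injured CAST, 0.358 to 0.41 FPKM in naive CAST, 1.1 to 1.51 FPKM in injured C57 and 0.336 to 0.461 FPKM in naive C57 libraries, so the strains overlapped in both states, and 1 marker, Gzmb, was at 0 in every naive CAST library. Ighm, the heavy chain of IgM and the called member of 5 B cell markers, had 1.33, 1.11, 1.73 and 1.44 FPKM in injured CAST, 0.535, 0.724, 0.504 and 0.544 FPKM in naive CAST, 3.66, 3.54, 3.29 and 4.02 FPKM in injured C57 and 4.74, 4.85, 4.56 and 4.56 FPKM in naive C57 libraries. It rose in CAST and fell in C57 while staying below C57 in both states, a difference in response of 1.51 (SE 0.163, adjusted p = 1.71e-06). Of 11 neutrophil markers, 1 was called (9.09%, against 11.8% of all genes), Csf3r at 0.65, and not on all 4 scales. The median of the 11 was −0.67.

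**Figure D3:**
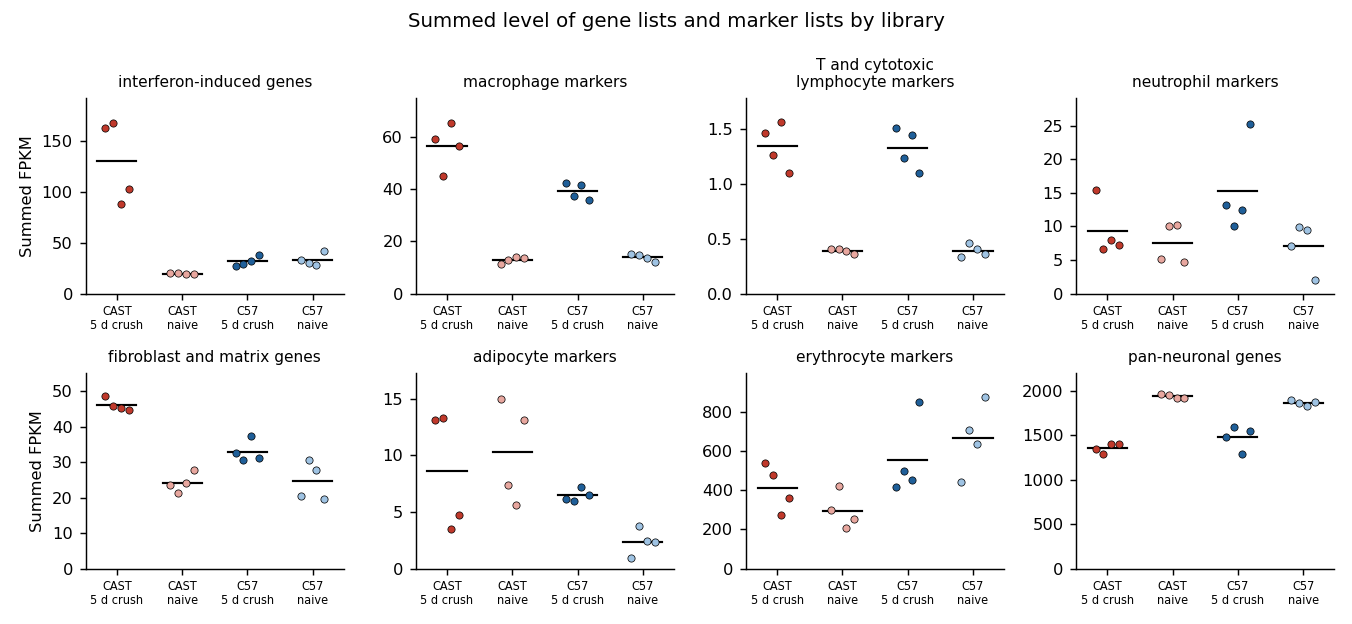
Summed FPKM of the interferon-induced genes and of 7 marker lists in each library (points), with group means (bars). Injured CAST stands apart for interferon-induced genes, at 87.4 to 167 FPKM, while T and cytotoxic lymphocyte markers reach 1.1 to 1.56 FPKM in injured CAST and 1.1 to 1.51 FPKM in injured C57, and adipocyte markers vary between libraries of a group.

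Neuropeptide genes differed in both directions. Of 20 neuropeptides and receptors, 4 had a higher response in CAST and 5 a lower one, 45% called against 11.8% of all genes. On the 4 scales 4 were higher and 4 lower. Gal encodes galanin, a peptide that injured sensory neurons make. Its levels were 266, 298, 327 and 252 FPKM in injured CAST, 4.04, 2.1, 1.56 and 1.68 FPKM in naive CAST, 96.6, 87.1, 83.7 and 74.4 FPKM in injured C57 and 2.37, 1.88, 2.18 and 2.02 FPKM in naive C57 libraries. The naive groups overlapped and the injured groups did not. The ratio of injured to naive means was 122 in CAST and 40.5 in C57, and the log2 difference in response was 1.69 (SE 0.269, adjusted p = 0.000184). Adcyap1, the PACAP precursor, rose 5.36-fold in CAST and 2.33-fold in C57 (1.19, adjusted p = 9.68e-07), and the neuropeptide Y receptor Npy1r 3.03-fold and 1.41-fold (1.03, adjusted p = 8.54e-08). Npy itself rose 227-fold in CAST and 341-fold in C57 and was not called (adjusted p = 0.212). Its ratios and its log2 difference of 0.53 point in opposite directions, since the naive levels lie near the pseudocount, and with a pseudocount of 0.01 the difference was −0.19 (adjusted p = 0.851), against 1.11 with a pseudocount of 1 (adjusted p = 4.96e-09).

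Gpr151, an orphan receptor induced by nerve injury, had the lowest difference of this list. Its levels were 26, 27.7, 28 and 22.4 FPKM in injured CAST, 2.52, 2.14, 1.93 and 2.16 FPKM in naive CAST, 68.4, 58.3, 63.2 and 54.6 FPKM in injured C57 and 1.1, 0.435, 0.544 and 0.797 FPKM in naive C57 libraries. CAST thus started above C57 and ended below it, with no overlap in either state, and the log2 difference in response was −2.77 (SE 0.241, adjusted p = 9.6e-08). Sst, or somatostatin, a peptide of itch neurons, fell to 4.45, 3.33, 2.73 and 6.05 FPKM in injured CAST, against 18.5, 20.8, 21.8 and 22.2 FPKM in naive CAST. In C57 it had 2.11, 2.34, 1.45 and 2.31 FPKM in injured and 4.06, 3.21, 3.49 and 4.33 FPKM in naive libraries, so the naive strains were far apart and the injured groups closer, without overlap, a difference of −1.50 (SE 0.31, adjusted p = 0.00224). Nts, or neurotensin, rose 8.24-fold in CAST and 15.3-fold in C57 (−0.82, adjusted p = 0.00126), and Crh rose 86.5-fold and 117-fold (−0.89, adjusted p = 0.000427), the Crh call being lost on at least 1 of the 4 scales.

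Opposite responses were seen in 62 of the 903 called genes that met the level and annotation filters for naming, and 8 are described. Cartpt, the precursor of the CART peptide, had 7.41, 8.61, 8.47 and 6.82 FPKM in injured CAST, 4.19, 3.83, 3.9 and 3.8 FPKM in naive CAST, 2.45, 2.79, 3.08 and 2.4 FPKM in injured C57 and 4.25, 4.1, 6.73 and 3.5 FPKM in naive C57 libraries. The naive groups overlapped, and crush took CAST above and C57 below them, a log2 difference of 1.71 (SE 0.195, adjusted p = 3.3e-06). Htr1d, a serotonin receptor, had 1.24 to 1.45 FPKM in injured CAST, 0.73 to 0.817 FPKM in naive CAST, 0.299 to 0.357 FPKM in injured C57 and 0.435 to 0.538 FPKM in naive C57 libraries, with no overlap between any of the groups and a difference of 1.13 (SE 0.0809, adjusted p = 5.94e-09). Lgals3bp, a secreted glycoprotein that binds galectins and a member of the interferon list, rose 2.68-fold in CAST and had a ratio of 0.74 in C57 (1.76, adjusted p = 3.62e-07).

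Thy1, a surface protein of mature neurons that is also found on some lymphocytes and fibroblasts, had 69.3, 65, 61.6 and 71.9 FPKM in injured CAST, 110, 114, 111 and 116 FPKM in naive CAST, 157, 159, 137 and 148 FPKM in injured C57 and 126, 113, 104 and 112 FPKM in naive C57 libraries. The naive groups overlapped, and after crush the strains lay on opposite sides of them, a log2 difference of −1.15 (SE 0.0922, adjusted p = 2.87e-08). Penk, the enkephalin precursor, had 2.88, 2.37, 1.77 and 2.42 FPKM in injured CAST, 4.32, 4.26, 3.95 and 3.7 FPKM in naive CAST, 2.03, 1.92, 1.66 and 1.72 FPKM in injured C57 and 1.32, 0.961, 1.67 and 1.23 FPKM in naive C57 libraries. The naive groups were far apart and the injured groups overlapped, a difference of −1.26 (SE 0.191, adjusted p = 0.000107), and Penk overlaps A830012C17Rik on the opposite strand. Wnt2b, a Wnt ligand, and Gpr65, a proton-sensing receptor of immune cells, likewise fell in CAST, where naive levels were above those of C57, and rose in C57, with differences of −1.56 and −1.71 (adjusted p = 1.99e-07 and 1.36e-07). Igkc, the constant part of immunoglobulin kappa light chains, varied widely within groups, from 0.621 to 2.75 FPKM in injured CAST, 2.06 to 3.54 FPKM in naive CAST, 2.17 to 8.17 FPKM in injured C57 and 0.604 to 1.34 FPKM in naive C57 libraries (−2.99, SE 0.605, adjusted p = 0.00192).

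**Figure D4:**
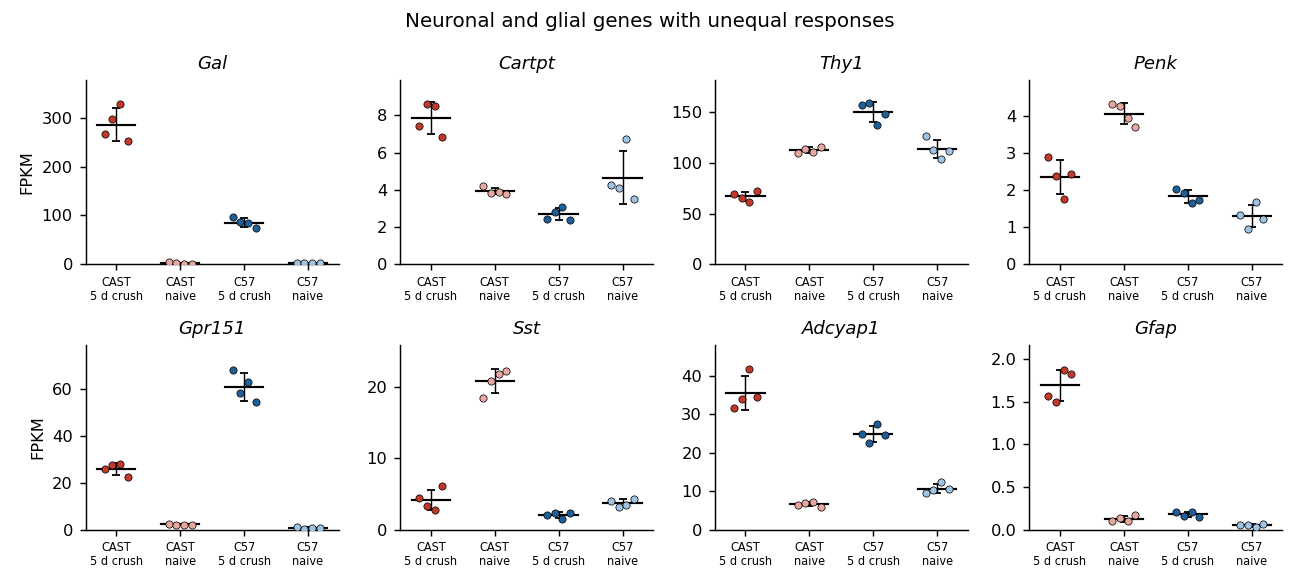
FPKM of 8 neuronal and glial genes in each library (points), with group means (bars) and SD (whiskers, n = 4). Gal rises in both strains and reaches 252 to 327 FPKM in injured CAST against 74.4 to 96.6 FPKM in injured C57, Cartpt and Thy1 move in opposite directions in the strains, and among these 4 groups Gfap is highest in injured CAST.

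Of 22 injury-induced transcription factors, 2 had a higher response in CAST and 0 a lower one (4 and 0 at an unadjusted p under 0.05, and 2 and 0 with voom), which is 9.09% called against 11.8% of all genes. Their median log2 difference was 0.10. Atf3, the stress factor that marks axotomised neurons, reached 17.5, 16.7, 20.3 and 17.4 FPKM in injured CAST and 20.8, 17.5, 18 and 16.1 FPKM in injured C57, against 0.289 to 0.496 FPKM in naive CAST and 0.247 to 0.349 FPKM in naive C57 libraries. The strains overlapped in both states, and the difference of −0.26 was not called (SE 0.159, adjusted p = 0.355). Jun (0.14, adjusted p = 0.549) and Sox11 (−0.11, adjusted p = 0.785), factors of axon growth, were not called either, and the sign for Sox11 turned with a pseudocount of 1 (0.09) and without naive C57 replicate 1 (0.01). Among those called, Junb, an AP-1 factor, had a difference of 0.65 (adjusted p = 0.00679).

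Of 24 growth-associated genes, 3 had a higher response in CAST (Plaur, Tubb6 and Hspb1) and 4 a lower one, 29.2% called against 11.8% of all genes. Within CAST 22 rose (25.7% of all genes), and within C57 23 (18.7% of all genes). The lower count was 2 without injured C57 replicate 1, injured C57 replicate 4 or naive CAST replicate 2. Gap43, a growth cone protein, was raised 4.5-fold in CAST and 3.91-fold in C57, and the difference of 0.19 was not called (adjusted p = 0.203). Plaur, the urokinase receptor, was raised 10.2-fold in CAST and 5.03-fold in C57 (0.89, adjusted p = 2.41e-05), and Tubb6, a tubulin, 9.3-fold and 5.66-fold (0.68, adjusted p = 3.82e-05). Hspb1, a small heat shock protein, had a difference of 0.50 (adjusted p = 0.0216) that was lost without the 2 libraries named at the start. Sprr1a, a small proline-rich protein of regenerating axons, had 362, 398, 470 and 400 FPKM in injured CAST, 4.04, 2.47, 1.47 and 1.79 FPKM in naive CAST, 510, 460, 451 and 424 FPKM in injured C57 and 1.29, 0.318, 0.473 and 0.483 FPKM in naive C57 libraries. The injured groups overlapped (−0.18, adjusted p = 0.636) and the naive groups did not (1.84, adjusted p = 3.11e-05), and the difference in response was −2.02 (SE 0.417, adjusted p = 0.00226).

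Most genes of nociceptors fell in both strains, against 21.5% of all genes in CAST and 20.7% in C57. Of 20 tested, 18 fell and 1 rose in CAST and 17 fell and 1 rose in C57, P2rx3, an ATP-gated channel, being the gene that rose in each. The response was lower in CAST for 6, 4 of them on the 4 scales, and higher for 1 (Oprm1, 0.07, on fewer scales). That is 35% called, against 11.8% of all genes. The count of 6 was 3 without injured C57 replicate 3, injured CAST replicate 3, naive CAST replicate 2 or naive CAST replicate 4, 2 without both libraries named at the start, and 1 when only the 16 libraries were fitted. Htr3a, a serotonin-gated channel, had 1.07, 1.25, 0.703 and 1.01 FPKM in injured CAST, 4.16, 4.03, 4.22 and 4.55 FPKM in naive CAST, 4.24, 4.89, 4.8 and 4.46 FPKM in injured C57 and 11, 9.7, 9.81 and 9.85 FPKM in naive C57 libraries. Naive CAST thus lay beside injured C57, and the log2 difference in response was −0.87 (SE 0.168, adjusted p = 0.00121). Mrgprd, a receptor of non-peptidergic nociceptors, had 3.78 to 8.38 FPKM in injured CAST against 19.8 to 21.8 FPKM in naive CAST, and 6.16 to 8.54 FPKM in injured C57 against 13.7 to 15.7 FPKM in naive C57 libraries. Its difference of −0.83 (adjusted p = 0.0191) was lost without both libraries named at the start. Scn10a, the sodium channel Nav1.8, had a difference of −0.22 that was not called (adjusted p = 0.53).

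Of 30 voltage-gated channel genes, 3 had a lower response in CAST, 1 of them (Kcns1, −0.45, adjusted p = 0.00872) on the 4 scales, and 0 a higher one. At 10% called, this list lay near the 11.8% of all genes. Leaving out 1 library gave 2 to 4 lower calls, 2 of them without injured C57 replicate 2 or 4, naive C57 replicate 1, injured CAST replicate 3 or naive CAST replicate 3, and 1 higher call without naive C57 replicate 1. Of 16 pan-neuronal genes, 4 had a lower response, all on the 4 scales, and 0 a higher one (1 higher without naive C57 replicate 1). This was 25% called, against 11.8% of all genes. Besides Thy1 the 4 were Eno2, the neuronal enolase (−0.33, adjusted p = 0.000361), Syt1, a calcium sensor of synaptic vesicles (−0.23, adjusted p = 0.000756), and Rbfox3, known as NeuN (−0.13, adjusted p = 0.00269). Syt1 and Rbfox3 lie near the pseudocount, and on log2(CPM + 0.5) they had −0.44 and −0.36. The pan-neuronal sum was 1290 to 1400 FPKM in injured CAST, 1920 to 1970 FPKM in naive CAST, 1290 to 1590 FPKM in injured C57 and 1830 to 1900 FPKM in naive C57 libraries. The injured groups overlapped, and the part of neuron content in the neuronal differences was not tested.

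Signalling genes were split. Of 27 genes of activin, TGF-beta and BMP signalling, 6 had a higher and 2 a lower response in CAST, 5 and 2 on the 4 scales. The share called was 29.6%, against 11.8% of all genes. Inhba, the subunit of activin A, had 0.134, 0.12, 0.121 and 0.142 FPKM in injured CAST, 0.0154, 0.0106, 0.00816 and 0.0051 FPKM in naive CAST, 0.00763, 0.0123, 0.00762 and 0.0134 FPKM in injured C57 and 0.00668, 0.0128, 0.0116 and 0.00794 FPKM in naive C57 libraries. The 12 libraries other than injured CAST overlapped. Inhba was raised 13.2-fold in CAST and had a ratio of 1.05 in C57, and the log2 difference of 1.06 (SE 0.044, adjusted p = 1.57e-12) is kept small by the pseudocount. It overlaps 2 genes on the opposite strand. Fst, or follistatin, which binds activin and blocks it, rose in both strains and less in CAST, with 4.23, 4.44, 4.92 and 4.06 FPKM in injured CAST, 0.747, 0.496, 0.38 and 0.836 FPKM in naive CAST, 6.34, 5.45, 6.67 and 5.24 FPKM in injured C57 and 0.338, 0.365, 0.472 and 0.299 FPKM in naive C57 libraries. The injured groups did not overlap, and the difference was −0.99 (SE 0.22, adjusted p = 0.00436). Fstl3, another activin antagonist, had a difference of 0.61 (adjusted p = 0.00945), and the TGF-beta receptor Tgfbr1 one of 0.57 (adjusted p = 9.95e-06).

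In gp130 cytokine signalling, 3 of 17 genes had a higher response in CAST (6 without naive C57 replicate 1) and 1 a lower one. That is 23.5% called, against 11.8% of all genes. The higher ones were the ligands Clcf1 (0.78, adjusted p = 1.91e-06) and Lif (0.37, adjusted p = 3.13e-05) and the feedback inhibitor Socs1 (0.94, adjusted p = 0.0176), and the lower one was the kinase Jak1 (−0.30, adjusted p = 0.000506). Lif, at levels below the pseudocount, had 0.67 on log2(CPM + 0.5). Of 16 neurotrophic factors and receptors, 3 were higher, all on the 4 scales, and 3 lower, none of which held on the 4 scales. The share called was 37.5%, against 11.8% of all genes. The lower count was 1 without both libraries named at the start, 1 or 2 whichever single library was left out, and 0 when only the 16 libraries were fitted. Gdnf, a survival factor made by glia, was at 0.0442, 0.0456, 0.0775 and 0.1 FPKM in injured CAST, 0.0142 to 0.0223 FPKM in naive CAST, 0.00906 to 0.0144 FPKM in injured C57 and 0.00909 to 0.0154 FPKM in naive C57 libraries. It rose in CAST, its change in C57 was not called (adjusted p = 0.928), and the strains had a log2 difference in response of 0.46 (SE 0.109, adjusted p = 0.00683), and injured DBA ganglia stood higher still, at a mean of 0.139 FPKM. Gfra3, the receptor of artemin, had a difference of 0.33 (adjusted p = 0.000845).

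Glial genes did not move as a block. Of 12 satellite and reactive glia genes, 2 had a higher response in CAST and 3 a lower one, 41.7% called against 11.8% of all genes. Gfap, the filament protein of reactive glia, had 1.57, 1.5, 1.87 and 1.83 FPKM in injured CAST, 0.1, 0.134, 0.0993 and 0.17 FPKM in naive CAST, 0.212, 0.164, 0.202 and 0.148 FPKM in injured C57 and 0.0551, 0.0509, 0.0286 and 0.0599 FPKM in naive C57 libraries. Injured CAST stood alone, injured C57 overlapped with naive CAST, and the log2 difference in response was 2.07 (SE 0.169, adjusted p = 3.78e-08). Injured DBA averaged 2.39 FPKM against 0.159 FPKM in naive DBA, and CAST minus DBA was −0.27 (adjusted p = 0.36). Fabp7, a fatty acid carrier of satellite glia, had 4.34, 3.96, 8.58 and 6.7 FPKM in injured CAST, 7.32, 10.5, 13.7 and 20.1 FPKM in naive CAST, 25.8, 25.2, 20.9 and 24.2 FPKM in injured C57 and 19.7, 21.7, 21.2 and 20.5 FPKM in naive C57 libraries. The CAST groups overlapped, the naive CAST libraries spread widely, and the difference of −1.30 (SE 0.334, adjusted p = 0.0132) was lost when only the 16 libraries were fitted. Glul, which clears glutamate as glutamine, had a difference of −0.43 (adjusted p = 0.00142), and Sparcl1, a secreted glycoprotein, one of −0.42 (adjusted p = 0.000215).

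Of 12 repair Schwann cell genes, 3 were higher and 2 lower, 41.7% called against 11.8% of all genes. The lower count was 1 without any of 12 single libraries and 0 without injured CAST replicate 3. Ucn2, the peptide urocortin 2, had 3.73, 3.12, 3.39 and 4.45 FPKM in injured CAST, 0.201 to 0.417 FPKM in naive CAST, 0.424 to 0.524 FPKM in injured C57 and 0.0918 to 0.195 FPKM in naive C57 libraries, a difference of 1.86 (SE 0.235, adjusted p = 1.26e-05). Injured CAST stood alone, and injured DBA was of like size at a mean of 4.28 FPKM. With limma, 0 of 16 myelin genes were called, 0 had an unadjusted p under 0.05, and voom called 0. Fibroblast and matrix genes had a median difference of 0.33, and 4 of 16 were higher (25% called, against 11.8% of all genes). That count was 2 without injured C57 replicate 2 or 4, naive C57 replicate 2 or 3 or naive CAST replicate 2, 7 without naive C57 replicate 1, and 8 without both libraries named at the start. Their sum was 44.7 to 48.7 FPKM in injured CAST, 21.3 to 27.8 FPKM in naive CAST, 30.5 to 37.3 FPKM in injured C57 and 19.7 to 30.5 FPKM in naive C57 libraries. Tnc, a matrix protein of injured tissue, rose 7.54-fold in CAST and 2.45-fold in C57. Its difference of 0.28 (adjusted p = 0.0029) is kept small by the pseudocount, and was 1.16 on log2(CPM + 0.5). Of 9 endothelial markers, 3 were higher (33.3% called, against 11.8% of all genes), and 1 when only the 16 libraries were fitted. On the 4 scales 2 were higher, since the Vwf call was lost with a pseudocount of 0.01. The Tie1 call was lost when single libraries of each of the 4 groups were left out. The differences of the 3 were at most 0.23 at low FPKM. On log2(CPM + 0.5) Tek had 0.46, Vwf 0.45 and Tie1 0.29.

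Genes outside these lists were among the extremes. Klk4, a serine protease known from tooth enamel, had 1.68, 1.53, 1.46 and 1.84 FPKM in injured CAST, 0.083, 0.0415, 0.0365 and 0.0453 FPKM in naive CAST, 0.0201, 0, 0.0252 and 0.0116 FPKM in injured C57 and 0.0135, 0.0222, 0.0309 and 0.0201 FPKM in naive C57 libraries. Foxl1, a forkhead factor known from gut mesenchyme, had 1.64, 1.74, 1.95 and 1.43 FPKM in injured CAST and at most 0.0575 FPKM in the other 12 CAST and C57 libraries. Both were thus near the floor in those 12 libraries, with log2 differences of 3.61 for Klk4 (SE 0.138, adjusted p = 5.58e-13) and 3.53 for Foxl1 (SE 0.167, adjusted p = 1.2e-11), and Foxl1 overlaps Gm20388 on the same strand. Kcnk16, a potassium channel, had 0.269, 0.282, 0.384 and 0.276 FPKM in injured CAST, 0.0953 to 0.107 FPKM in naive CAST, 0.765 to 0.905 FPKM in injured C57 and 0.0144 to 0.0276 FPKM in naive C57 libraries, a difference of −1.96 (SE 0.1, adjusted p = 3.45e-11). Tmem88b, a transmembrane protein, rose 3.57-fold in CAST and 12.5-fold in C57 (−1.76, adjusted p = 6.69e-06). Fut1, which adds fucose to cell surface sugars, had 1.08 to 1.88 FPKM in injured CAST and 5.05 to 5.86 FPKM in naive CAST, against 0.0351 to 0.0627 FPKM in injured C57 and 0.035 to 0.0686 FPKM in naive C57 libraries, so it was at the floor in C57 and fell in CAST (−1.80, adjusted p = 2.25e-07).

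Car3, a carbonic anhydrase of muscle and fat, had the lowest difference. It had 0.859, 1.15, 0.396 and 0.533 FPKM in injured CAST, 1.68, 0.734, 0.512 and 1.23 FPKM in naive CAST, 5.44, 4.64, 5.54 and 5.01 FPKM in injured C57 and 0.182, 0.443, 0.255 and 0.372 FPKM in naive C57 libraries. The CAST groups overlapped and injured C57 stood alone, a log2 difference of −4.13 (SE 0.577, adjusted p = 4.3e-05). Of the other 6 tested adipocyte markers 0 were called and 1 had an unadjusted p under 0.05. The sum over the list, Car3 included, was 3.48 to 13.3 FPKM in injured CAST, 5.63 to 15 FPKM in naive CAST, 5.93 to 7.18 FPKM in injured C57 and 0.892 to 3.74 FPKM in naive C57 libraries. In CAST, Car3 and that sum were both higher in injured replicates 1 and 2 than in 3 and 4, and in naive replicates 1 and 4 than in 2 and 3. In injured C57 libraries Car3 itself made up most of the sum, at 4.64 to 5.54 FPKM. In naive C57 libraries it made up a smaller part, at 0.182 to 0.443 FPKM. The higher sum in injured C57 therefore does not show a rise of the other 6 markers. The part of adhering fat in the Car3 values was not tested.

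The small proline-rich genes beside Sprr1a on chromosome 3 were looked at after their values were seen. Sprr2a1 had 0.0121, 0.012, 0.0105 and 0.0155 FPKM in injured CAST and 0, 0, 0 and 0.00143 FPKM in naive CAST, against 1.24, 1.07, 1.39 and 1.18 FPKM in injured C57 and 0.0157 to 0.0369 FPKM in naive C57 libraries, a log2 difference of −3.21 (SE 0.0954, adjusted p = 7.91e-15). Injured CAST stayed below naive C57. Sprr2a2, Sprr2a3, Sprr2i and Sprr2g also had lower responses in CAST, from −1.71 to −0.84. Sprr3 went the other way, with 1.43, 1.6, 1.73 and 1.54 FPKM in injured CAST, 0.0217, 0, 0.0179 and 0 FPKM in naive CAST, 0.122, 0.0723, 0.237 and 0.0849 FPKM in injured C57 and 0.00469, 0, 0 and 0 FPKM in naive C57 libraries, a difference of 2.80 (SE 0.246, adjusted p = 1.1e-07), and so did Sprr1b (1.90, adjusted p = 7.46e-07), which was not called on all 4 scales. The Sprr2 genes are close copies that can trade reads, and voom on estimated reads called none of Sprr2a1, Sprr2a3, Sprr2g, Sprr2i, Sprr3 and Sprr1b, so these values are uncertain.

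In the remaining lists 0% to 20% of members were called, against 11.8% of all genes. Of 22 genes of cholesterol synthesis 2 had a lower response in CAST (4 without both libraries named at the start), with a median log2 difference of −0.13, and of 24 nuclear genes of oxidative phosphorylation 1 was lower (2 without naive C57 replicate 1 and without both libraries named at the start), a call lost without most other single libraries. Of 23 cell cycle genes 2 were higher, Mcm6 (0.49, adjusted p = 2.92e-06) and Mcm4 (0.27, adjusted p = 0.0302). At an unadjusted p under 0.05, 11 of the 23 were higher and 0 lower. Over all genes, 6243 of 27110 passed in either direction. Their split by direction is not given, so the 2 counts are not alike. The Mcm4 call was lost without any of injured C57 replicates 1 and 4, naive C57 replicate 4, injured CAST replicate 3 and naive CAST replicates 1 and 4. It was also lost with upper-quartile scaling and when only the 16 libraries were fitted. Of 15 genes of the integrated stress response, 2 were higher and 1 lower. The higher count was 1 without any of injured C57 replicates 2 and 4, naive C57 replicate 2, injured CAST replicates 1 and 2 and naive CAST replicates 2 and 3. The lower count was 2 without any of injured C57 replicate 4, naive C57 replicate 1, injured CAST replicate 4 and naive CAST replicate 1, and 3 without injured CAST replicate 3. Of 15 genes that respond to handling 2 were higher, Junb and Ier3. With limma, 0 of 10 skeletal muscle and 0 of 5 erythrocyte markers were called, 0 had an unadjusted p under 0.05, and voom called 0. Erythrocyte markers summed to 274 to 537 FPKM in injured CAST, 207 to 420 FPKM in naive CAST, 415 to 852 FPKM in injured C57 and 443 to 874 FPKM in naive C57 libraries. The injured strains overlapped, whereas naive CAST lay below naive C57 in every library, and all 5 markers were lower in naive CAST.

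**Figure D5:**
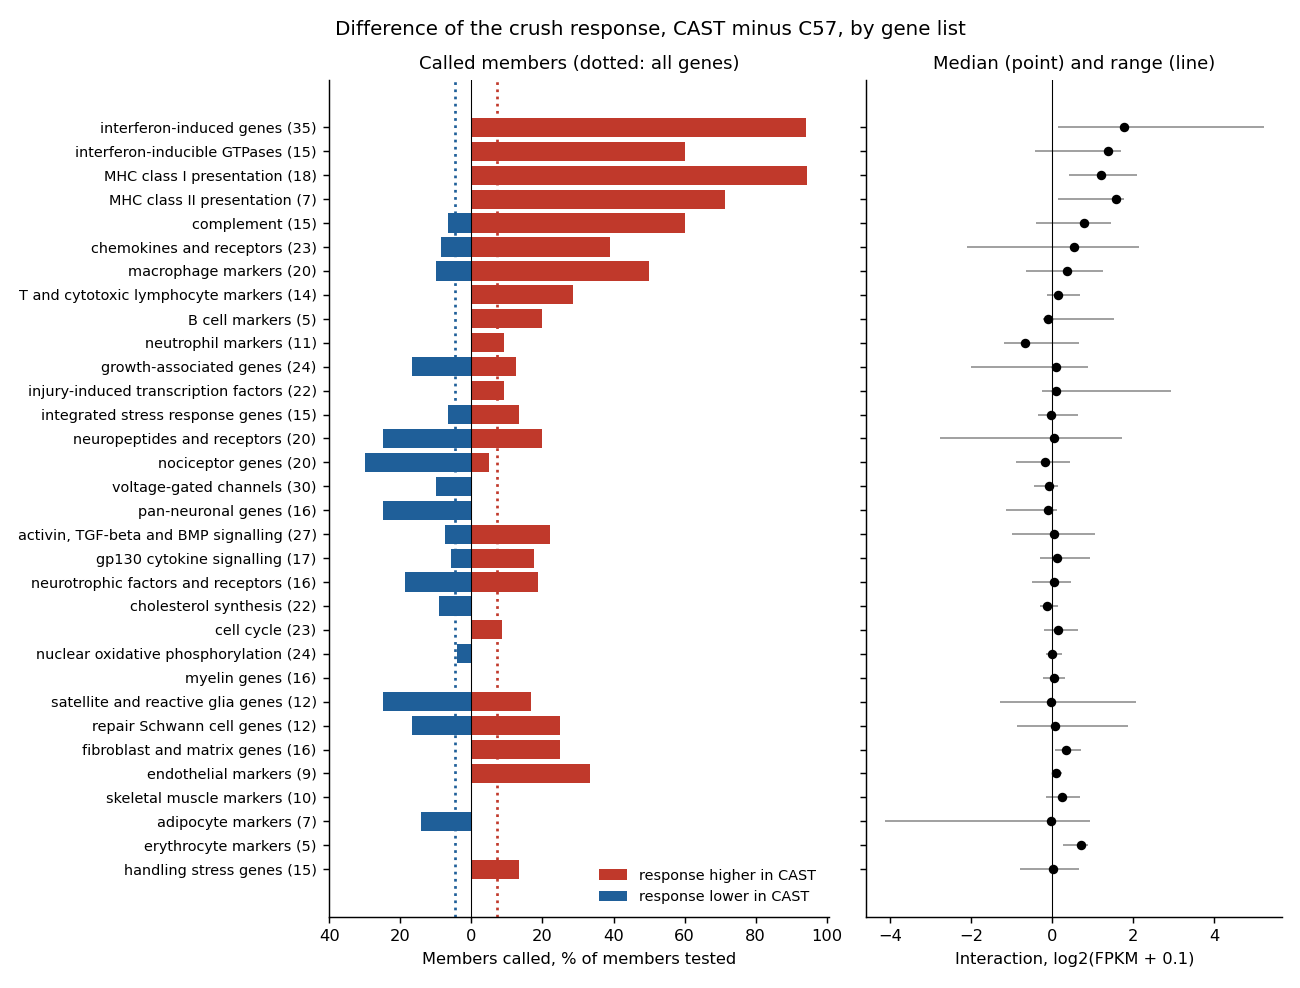
Share of the tested members of each list (number in brackets) with a called higher (red) or lower (blue) response in CAST on the left, with the shares of all genes, 7.07% and 4.73%, as dotted lines. On the right, the median (point) and range (line) of the log2 difference in response on the log2(FPKM + 0.1) scale, which reaches a median of 1.76 for interferon-induced genes and lies near 0 for injury-induced transcription factors, at 0.10.

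Values of DBA ganglia were set beside the main ones, bearing in mind that CAST minus DBA shares its CAST libraries with CAST minus C57. Over all genes the response in CAST exceeded that in DBA for 1994 genes (7.36%) and lay below it for 1792 (6.61%). The interferon-induced genes had a higher response in CAST than in DBA for 31 of 35, although 16 of the 35 rose and 2 fell within DBA (26.5% and 24% of all genes). Ifit1 averaged 1.0 FPKM in injured DBA against 0.656 FPKM in naive DBA, and its response was higher in CAST than in DBA by 4.45 (adjusted p = 1.42e-07) on the log2 scale. For Gal, injured DBA averaged 340 FPKM against 2.16 FPKM in naive DBA, and CAST minus DBA was −0.27 (adjusted p = 0.605). For Sprr1a it was −2.32 (adjusted p = 0.000513), with 546 FPKM in injured DBA and 0.558 FPKM in naive DBA, and for Thy1, which rose in DBA, it was −1.19 (adjusted p = 1.31e-08).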

How the data were processed

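RNA of dorsal root ganglia was sequenced as total RNA by a standard Illumina protocol, per the labels' protocols. Reads were aligned with STAR 2.3.0 to mm10, per the submitters' processing notes. Which tool counted reads, on which annotation, and what it did with strand and with multiply mapped reads was not given in the sources used here. All strains were thus aligned to 1 genome, assembled from C57BL/6J, and the effect on CAST levels was not tested. The authors deposited FPKM values for 38215 genes.

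Of the IDs, 36345 (95.1%) were in GENCODE M21, whose names and mm10 coordinates are used. FPKM times gene span gave whole reads, within 0.05, for 67.9% of values worth 0.5 to 100 reads (10% by chance), so reads were estimated, which served for filters, totals and alternatives. The filter asked for 10 or more estimated reads in 4 or more libraries, or 0.1 FPKM where an ID had no span, and 27110 were tested and 11105 removed. The model was limma 3.58.1 in R 4.3.3 on log2(FPKM + 0.1), with the 6 group means of all 24 libraries with moderated variances (trend and robust options of eBayes). P-values are two-sided, Benjamini-Hochberg adjusted per contrast over all genes tested, and a gene was called under 0.05. A fold change of group means is on the FPKM scale, and none is given against a group at 0. The method was tested on simulated data, with no outcome reported here, so this gives no error rate for these libraries. Replicate numbers were not used as pairs. The pseudocount was 0.1 because adding 1 FPKM makes equal ratios look unequal where naive levels differ.

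The comparison and the 32 lists (541 genes, 537 tested) were chosen with earlier results of these data known, so counts over a list are no independent support. Named were the 10 highest and 10 lowest differences called on 4 scales with a group mean of at least 0.5 FPKM and an assigned gene symbol, up to 4 called members of each list, the 8 clearest opposite responses, and fixed injury genes. Other genes named are members of the lists, or are said to have been chosen after their values were seen. Quadruplicates are called biological by the design, and nothing says how animals were pooled. Alternatives were other pseudocounts, CPM, voom on estimated reads with trimmed-mean scaling, upper-quartile scaling, other filters, a fit on the 16 libraries, a replicate block, and leaving out libraries. The design text mentions further strains, which are not analysed here. A few genes of the lists are counted in them but not reported here by name.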

Additional observations from a re-analysis of the deposited data

Results flagged for a closer look

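Responses differed between CAST and C57 for 3199 genes, by the test of the difference itself. Among those that changed in opposite directions in the strains, the 8 chosen for it had log2 differences in response of 1.76 (Lgals3bp), 1.71 (Cartpt), 1.13 (Htr1d), −1.15 (Thy1), −1.26 (Penk), −1.56 (Wnt2b), −1.71 (Gpr65) and −2.99 (Igkc).

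A library far from the other 3 of its group was found in 28 of 608 groups. This is near the share that chance gives, about 1 in 20. The share is a rough one, since groups at 0 throughout, such as Gzmb in naive CAST, cannot show such a library. The values below are therefore listed without a claim that they exceed chance. In naive C57 replicate 4 interferon-induced genes were high, at 3.12 FPKM of Ifit1, 4.57 of Ifit3, 2.8 of Ifit3b and 1.4 of Rtp4, with 5.73 summed FPKM of interferon-inducible GTPases, and Glul was low at 11.6 FPKM. In injured CAST replicate 3, Htr1d (1.45 FPKM), Hspb1 (87.0), Mcm6 (0.661), Jun (64.0) and Kcnk16 (0.384) were high. In naive C57 replicate 1, Htr3a (11 FPKM) and Sprr1a (1.29) were high, and Gbp4 (0.178) and the gp130 signalling sum (24.4) were low. In injured C57 replicate 1, Mrgprb4 (4.11 FPKM) and Mrgprd (6.16) were low, and in injured C57 replicate 3, H2-Aa (2.7) and the chemokine sum (12.6) were high. Ifi27l2a was low in naive CAST replicate 2 (1.03 FPKM), where the chemokine sum was high (4.5), and Fstl3 was low in naive C57 replicate 2 (0.816). Among list sums, injured CAST replicate 1 was high for neutrophil (15.4) and muscle markers (7.27), injured CAST replicate 2 was low for integrated stress response genes (127) and for satellite and reactive glia genes (151), naive CAST replicate 4 was high for satellite and reactive glia genes (167), and naive CAST replicate 1 was low for complement (23).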

How the results depend on the processing

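Of 27110 genes, 3199 were called (1916 higher, 1283 lower). A filter on FPKM in place of estimated reads left 22743 genes and called 2109, 1255 higher and 854 lower, with fewer genes tested. Counts within 1.5 times were 3551 (pseudocount 1), 2805 (pseudocount 0.01), 3228 (CPM), 2640 (voom), 2862 (no filter), 2454 (the 16 libraries alone) and 3563 (without injured C57 replicate 3 and naive C57 replicate 1, chosen after seeing the data). Leaving out 1 library gave 2753 to 3435 calls, 1670 to 2149 higher and 1068 to 1286 lower. Upper-quartile scaling gave 1605 higher and 1571 lower (50.5% higher, against 59.9%). The sign reversed for Sox11, not called, with a pseudocount of 1 (0.09) and without naive C57 replicate 1 (0.01, with a range of −0.23 to 0.01 over the fits that left out 1 library), and the cause was not tested. Of the 120 named genes, the calls of 18 were lost in the fit on 16 libraries, and of 13 with voom.

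The shared replicate numbers did not pair the libraries: deviations of same-numbered libraries correlated at −0.134 to 0.135 (median 0.0213), and 5 of 16 libraries correlated best with their own number. With the number as a replicate block 3299 genes were called, 1983 higher and 1316 lower.

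Genes of a few reads per library limit the precision. Close copies, and overlapping genes, since strand use is not stated, limit what a value measures.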
